A study of Homo sapiens with 12 samples.

Results

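The genes described here encode the 8 subunits of the condensin complexes, DNA topoisomerase II alpha (TOP2A) and Ki-67 (MKI67). They were chosen by name, as the probe sets annotated to a single member gene. All 10 genes were among the 19775 genes with such a probe set on the array, and all 10 were among the 9130 genes with a log2 signal of at least 5 on at least 2 arrays. Of their 23 probe sets, 19 reached that level. The other 4, of which 3 belong to NCAPH2 and 1 to TOP2A (237469_at), did not. HCT116, a human colorectal carcinoma cell line, was arrested where G1 passes into S phase with a double thymidine block of 19 h and 16 h at 2 mM, with 9 h in normal medium in between. The cells were then released into DMSO, the vehicle, and collected at 0, 2, 4 and 6 h and then hourly to 10 h, or into nocodazole and collected hourly from 7 to 10 h. The labels give the nocodazole dose as 0.1 mg/ml. All 12 groups share the line, the medium and the block, and each was measured on 1 Affymetrix U133 Plus 2.0 array.

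Condensins are ring complexes that extrude and hold DNA loops and so compact the chromosomes of mitosis. Condensin I and condensin II share the ATPases SMC2 and SMC4 and differ in their other subunits, which are NCAPD2, NCAPG and NCAPH in condensin I and NCAPD3, NCAPG2 and NCAPH2 in condensin II. Condensin II is in the nucleus through interphase, whereas condensin I reaches the chromosomes after the nuclear envelope breaks down. TOP2A passes DNA strands through each other to untangle sister chromatids, and Ki-67 coats mitotic chromosomes and keeps them apart. Genes whose products act in G2 and mitosis are commonly controlled through promoter elements named CHR (TTTGAA) and CCAAT, and nocodazole, which depolymerizes microtubules, holds cells in mitosis.

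The 250 bases before the start of transcription are shown for the 3 genes that passed the test over the DMSO course (MKI67, NCAPD2 and NCAPG), for TOP2A, which had the widest DMSO range of the 10, and for NCAPD3, the condensin II counterpart of NCAPD2. They were read from RefSeq promoters on GRCh38.p14, on the strand of the gene, from 5′ to 3′. They lie at chr10:128126424-128126673 (MKI67, minus strand), chr12:6493852-6494101 (NCAPD2, plus strand), chr4:17810729-17810978 (NCAPG, plus strand), chr17:40417897-40418146 (TOP2A, minus strand) and chr11:134223968-134224217 (NCAPD3, minus strand, the first of its 2 listed starts). Capitals mark matches, on either strand, to CHR (TTTGAA), to the CCAAT box (CCAAT) and to the E2F motifs TTTCCCGC, TTTGGCGC and TTTCGCGC.
MKI67: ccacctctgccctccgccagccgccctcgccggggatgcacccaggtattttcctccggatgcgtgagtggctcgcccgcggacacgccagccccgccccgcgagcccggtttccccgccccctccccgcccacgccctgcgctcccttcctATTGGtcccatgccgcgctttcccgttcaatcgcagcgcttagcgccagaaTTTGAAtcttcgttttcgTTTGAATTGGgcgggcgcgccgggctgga
NCAPD2: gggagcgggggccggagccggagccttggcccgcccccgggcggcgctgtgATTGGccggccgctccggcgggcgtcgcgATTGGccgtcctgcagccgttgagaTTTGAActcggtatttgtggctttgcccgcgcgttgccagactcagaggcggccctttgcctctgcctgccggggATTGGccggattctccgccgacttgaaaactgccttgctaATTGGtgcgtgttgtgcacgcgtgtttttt
NCAPG: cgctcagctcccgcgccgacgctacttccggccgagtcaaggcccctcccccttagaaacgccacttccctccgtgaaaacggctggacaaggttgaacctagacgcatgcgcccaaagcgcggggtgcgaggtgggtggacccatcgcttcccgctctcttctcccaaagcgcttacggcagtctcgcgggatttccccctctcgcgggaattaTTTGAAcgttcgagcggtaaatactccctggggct
TOP2A: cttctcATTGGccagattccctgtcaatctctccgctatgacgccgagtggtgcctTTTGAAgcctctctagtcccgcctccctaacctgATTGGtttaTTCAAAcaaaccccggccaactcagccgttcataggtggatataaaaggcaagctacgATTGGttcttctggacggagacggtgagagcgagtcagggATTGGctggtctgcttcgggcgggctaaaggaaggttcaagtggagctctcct
NCAPD3: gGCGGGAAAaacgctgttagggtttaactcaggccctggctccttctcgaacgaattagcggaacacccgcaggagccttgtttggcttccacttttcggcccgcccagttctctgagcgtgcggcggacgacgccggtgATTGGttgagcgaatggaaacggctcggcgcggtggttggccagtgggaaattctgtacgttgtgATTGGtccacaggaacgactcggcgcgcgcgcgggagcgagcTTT

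Positions are those of the first base of a match, counted from the start of transcription. MKI67 held CHR matches at -47 and -29 and CCAAT matches at -98 and -24, and the matches at -29 and -24 share 1 base. NCAPD2 held a CHR match at -145 and CCAAT matches at -199, -170, -70 and -30. TOP2A held CHR matches at -194 and -151 and CCAAT matches at -244, -160, -93 and -53. NCAPG held a CHR match at -35 and no CCAAT match. The first start of NCAPD3 held CCAAT matches at -110 and -45, an E2F match at -249 and a CHR match at -3 that runs past the end of the printed stretch. NCAPH held a CCAAT match at -112, SMC4 a CHR match at -75, SMC2 a CHR match at -3 and NCAPG2 a CHR match at 36, after its start. The second listed starts of NCAPD3, SMC2 and SMC4 held none of these letters, and NCAPH2 was not analysed here. Over all 35116 promoters in the table, taken from 250 bases before to 50 after the start, 15.2% held a CHR match, 2.27% held at least 2, 34.6% held a CCAAT match, 0.991% held at least 4 and 2.74% held an E2F match. A match is a description of the letters and not a measured site.

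The arrays correlated with Pearson's r of 0.938 to 0.995, and no 2 of them were identical. All 5 epithelial markers checked were high on every array, with EPCAM at a log2 signal of 13.94 to 14.36 and CDH1 at 10.39 to 11.16. Of 4 markers of other cell types, PTPRC, PECAM1 and DCN stayed under the level filter, and COL1A1 was at 7.75 to 8.60. Both late nocodazole arrays, those at 9 and 10 h, were apart from the rest. The median log2 signal of the kept genes was 8.88 and 8.76 on them and 9.12 to 9.56 on the other 10. The highest median was that of the DMSO array at 10 h, so differences at 10 h join the lowest and the highest array. Each condition had 1 array, so the spread behind every test is that of neighbouring times around a fitted curve, a window mean or a treatment difference. In a bulk culture, fewer cells in a phase and less RNA per cell cannot be told apart. Signals of different probe sets are not on a common scale, so levels were compared between times and not between genes.

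Over the 8 DMSO times, NCAPD2, MKI67 and NCAPG passed the limma test for a smooth course, which is 3 of 10 genes against 21.8% of all 9130 genes. NCAPD2 and MKI67 were low at 0 to 4 h and high from 7 h on, whereas NCAPG was high up to 6 h and low from 7 h on. NCAPD2, a HEAT-repeat subunit of condensin I, had log2 signals of 10.55, 10.63, 10.88, 11.36, 11.76, 11.73, 11.59 and 12 over the 8 times in order (adjusted p = 0.00373, limma). Its lowest array was the one at 0 h and its highest the one at 10 h. MKI67 had 11.44, 11.51, 11.81, 12.03, 12.70, 12.48, 12.19 and 12.30 (adjusted p = 0.0119, limma). Its highest array was the one at 7 h, and every array from 6 h on was above the 3 of 0 to 4 h.

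NCAPG, the other HEAT-repeat subunit of condensin I, which binds DNA together with NCAPH, had log2 signals of 12.35, 12.46, 12.44, 12.57, 11.97, 11.96, 11.83 and 11.82 (adjusted p = 0.0341, limma). The 4 arrays up to 6 h did not overlap with the 4 arrays from 7 h on. This split was picked after the values were seen, and the share of all genes with it was not computed. A second NCAPG probe set, 218663_at, lay between 11.78 and 12.19 with its highest value also at 6 h. It did overlap at this split, with 11.86 at 0 h and 11.95 at 7 h. It did not pass when every probe set was fitted (adjusted p = 0.213, limma). Without the 0 h or the 2 h array only NCAPD2 passed over the course. NCAPG also lost its call without the 8, 9 or 10 h array, without the level filter, without the intensity trend and with its sets averaged, and without the 10 h array TOP2A passed in its place. After quantile normalization 9 of 10 passed, all but SMC2, against 40.1% of all genes.

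**Figure D1:**
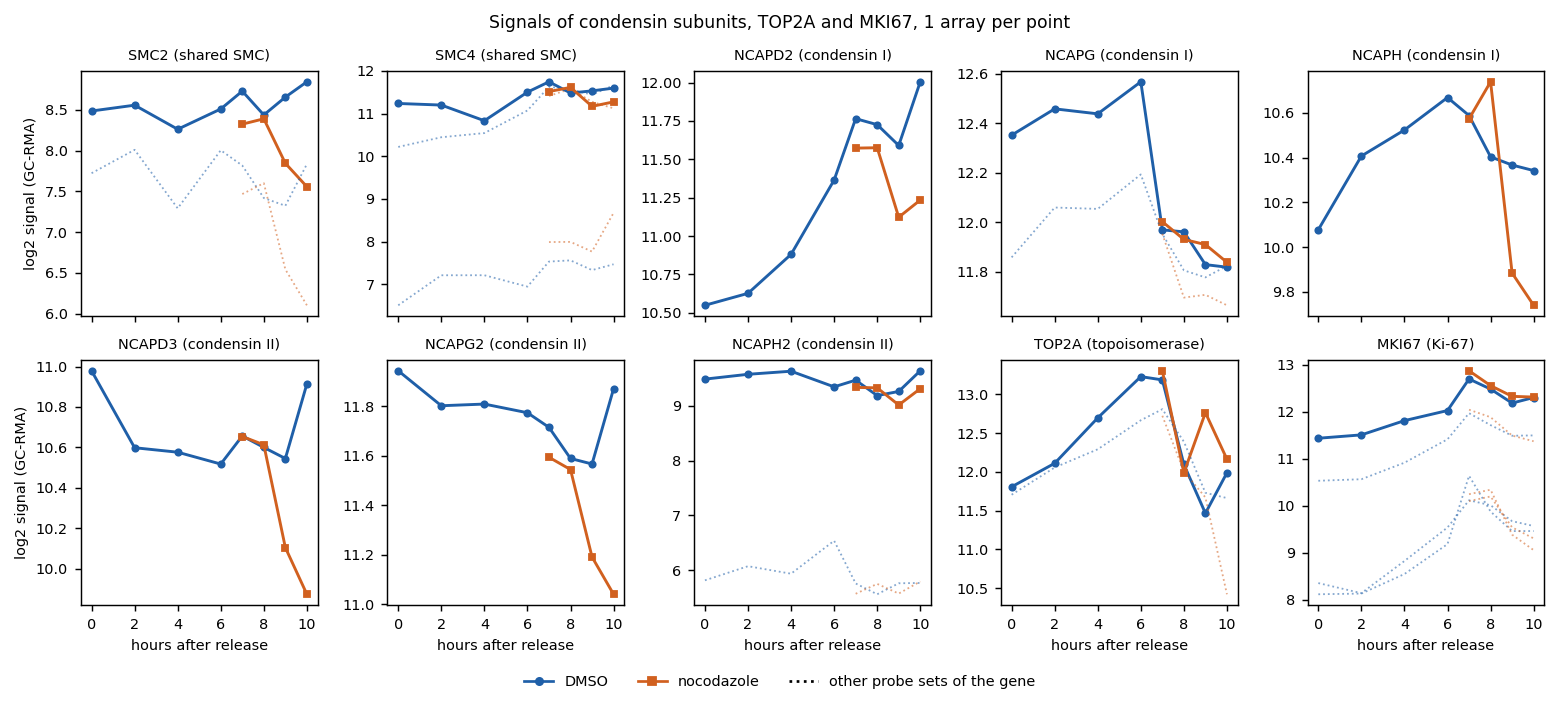
Log2 signal (GC-RMA) of each gene against hours after release, with DMSO in blue and nocodazole in orange, 1 array per point, and with dotted lines for other probe sets of the gene above the level filter. Each panel has its own vertical scale, and NCAPD2 and MKI67 climb over the DMSO course while NCAPG steps down between 6 and 7 h.

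TOP2A had the widest DMSO range of the 10 genes, 1.76 on the log2 scale, which was at percentile 91.0 of the ranges of all genes. Its signals were 11.81, 12.11, 12.70, 13.23, 13.19, 12.10, 11.47 and 11.99 in the same order. The 6 and 7 h arrays were the highest and the 9 h array the lowest, and the smooth course did not pass (adjusted p = 0.0909, limma). NCAPD2 and MKI67 followed with ranges of 1.46 and 1.26, at percentiles 85.1 and 79.4. The other 7 ranges lay between 0.38 for NCAPG2 and 0.91 for SMC4. The median range was 0.67 over the 10 genes and 0.77 over all genes.

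The shared ATPase SMC4 had log2 signals of 11.24, 11.20, 10.83, 11.50, 11.74, 11.48, 11.53 and 11.60 over the DMSO times, with all arrays from 6 h on above the 3 before. Its partner SMC2 had 8.49, 8.56, 8.26, 8.51, 8.73, 8.44, 8.66 and 8.84. No window of the SMC2 course stood clear of the others, and neither ATPase passed (adjusted p = 0.102 for SMC4 and 0.548 for SMC2, limma). SMC4 did pass by another of its sets, 201663_s_at (adjusted p = 0.00423, limma, in the fit of all probe sets, of which 24.0% passed), with its sets averaged and after quantile normalization. NCAPH, the kleisin that closes the ring of condensin I, had 10.08, 10.41, 10.52, 10.67, 10.59, 10.40, 10.37 and 10.34, lowest at 0 h and highest at 6 h (adjusted p = 0.131, limma).

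The 3 subunits of condensin II had narrow ranges as deposited. NCAPD3 was at 10.98, 10.60, 10.58, 10.52, 10.66, 10.60, 10.54 and 10.91, NCAPG2 at 11.94, 11.80, 11.81, 11.77, 11.71, 11.59, 11.57 and 11.87, and the kleisin NCAPH2 at 9.49, 9.58, 9.63, 9.35, 9.47, 9.19, 9.26 and 9.64. The highest NCAPD3 and NCAPG2 arrays were those at 0 h and the highest NCAPH2 array the one at 10 h. Their ranges of 0.46, 0.38 and 0.45 were at percentiles 20.0, 11.3 and 19.1 of all genes, and none passed the course test (adjusted p = 0.279, 0.428 and 0.394, limma). After quantile normalization the percentiles were 40.6, 15.0 and 40.8, and all 3 passed, where 40.1% of all genes did.

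Between 0 to 4 h and 6 to 8 h with DMSO, NCAPD2 and MKI67 rose and none of the 10 genes fell. This is 2 of 10 genes against 6.05% of all genes, of which 5.41% were higher and 0.635% lower. NCAPD2 went from 10.69 ± 0.17 to 11.62 ± 0.22 (SD, n = 3 arrays each), a log2 difference of 0.93 (SE 0.16, adjusted p = 0.0252, limma). MKI67 went from 11.59 ± 0.20 to 12.40 ± 0.34 (SD, n = 3 arrays each), a difference of 0.82 (SE 0.18, adjusted p = 0.0371, limma). Neither gene's windows overlapped.

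The rise of MKI67 was seen with every one of its probe sets. In a fit of all 15030 kept probe sets, of which 7.98% passed, 212020_s_at rose by 1.64, 212021_s_at by 1.03, 212022_s_at by 0.82 and 212023_s_at by 1.45 on the log2 scale (adjusted p from 0.0201 to 0.0356, limma). SMC4 differed by probe set. Its representing set 201664_at was higher by 0.49 (SE 0.14) and did not pass (adjusted p = 0.0677, limma), 201663_s_at rose by 1.02 (SE 0.17, adjusted p = 0.0239, limma), and 215623_x_at was higher by 0.37 (adjusted p = 0.378, limma).

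TOP2A was higher by 0.63 at 6 to 8 h (SE 0.33, 95% interval -0.13 to 1.39, adjusted p = 0.278, limma), with window means of 12.21 ± 0.45 and 12.84 ± 0.64 (SD, n = 3 arrays each). The 8 h array, at 12.10, lay among those of 0 to 4 h. The differences of the other genes were 0.22 for NCAPH, 0.12 for SMC2, -0.13 for NCAPD3, -0.16 for NCAPG2, -0.23 for NCAPH2 and -0.25 for NCAPG, and none of them passed. The 2 windows did not overlap for 5 of the 10 genes, higher for SMC4, NCAPD2 and MKI67 and lower for NCAPG2 and NCAPH2, where 30.8% of all genes did not overlap and 20.8% were higher. The median difference was 0.17 over the 10 genes and 0.06 over all genes.

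These calls rest on few arrays. Neither gene passed without the 0, 2, 7 or 8 h array or without the level filter, and without the 9 or the 10 h array NCAPD2 alone passed. Over all genes, 494 were higher and 58 lower at 6 to 8 h as deposited, and 464 were higher and 420 lower after quantile normalization. Quantile-normalized, NCAPD2 (0.83) and MKI67 (0.78) passed, and NCAPH2 passed in the other direction (-0.46, adjusted p = 0.0383, limma), against 9.68% of all genes, 5.08% higher and 4.60% lower.

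**Figure D2:**
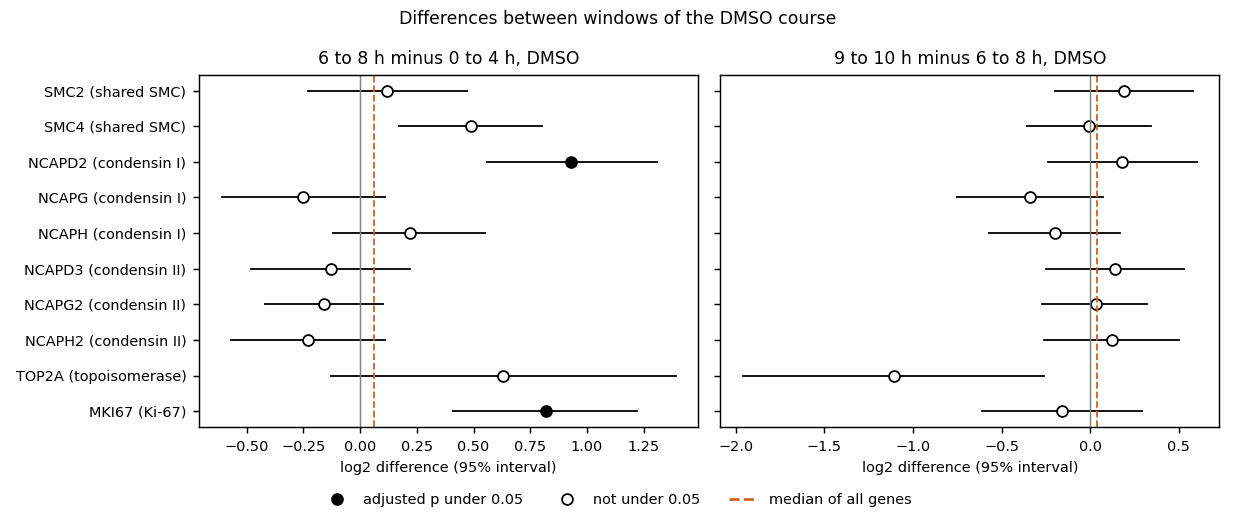
Log2 difference between windows of the DMSO course for each gene, with its 95% interval from limma, filled where the adjusted p was under 0.05, and with the median of all genes as a dashed line. On the left NCAPD2 and MKI67 are filled. The 3 subunits of condensin II and, lowest, NCAPG of condensin I lie under 0 there, all with intervals that include 0. On the right TOP2A lies furthest from 0 and no gene is filled.

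Between the 6 to 8 h window and the 9 to 10 h window of the DMSO course, 0 of 9130 genes passed limma's adjusted test and 5.15% had an unadjusted p under 0.05. TOP2A was lower by 1.11 (SE 0.37), from 12.84 ± 0.64 (SD, n = 3 arrays) to 11.73 ± 0.37 (SD, n = 2 arrays), with an adjusted p of 0.912 and an unadjusted p of 0.0165 from limma. Its second probe set, 201292_at, gave a difference of -0.93 (SE 0.19, adjusted p = 0.778, limma), in a fit where 0 of 15030 probe sets passed. The differences of the other 9 genes lay between -0.34 for NCAPG and 0.19 for SMC2. NCAPD2 stayed at 11.80 ± 0.29 and MKI67 at 12.24 ± 0.08 (SD, n = 2 arrays each), within 1 SD of their 6 to 8 h means.

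The other subunits were read against each other within each array, which cancels a shift that all genes of an array share. The mean of NCAPD2, NCAPG and NCAPH minus the mean of NCAPD3, NCAPG2 and NCAPH2, set to 0 at DMSO 0 h, was 0.32, 0.42, 0.80, 0.64, 0.72, 0.61 and 0.39 at 2 to 10 h. Its mean was 0.24 ± 0.22 at 0 to 4 h and 0.72 ± 0.08 at 6 to 8 h (SD, n = 3 arrays each). The mean of the condensin I subunits, though not each of them, was thus higher relative to that of condensin II in the later window. The difference of 0.47 was larger than the pooled SD within windows of 0.16, and the windows did not overlap. Without the 0 h array the difference was 0.35. The next difference of -0.21, to 0.50 ± 0.16 at 9 to 10 h (SD, n = 2 arrays), was close to that SD. No p is given for such a score.

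The 3 pairs of counterparts did not contribute alike. NCAPD2 minus NCAPD3 was 0.46, 0.73, 1.28, 1.54, 1.56, 1.47 and 1.52 above its 0 h value at 2 to 10 h, a change of 1.06 between the windows. NCAPH minus NCAPH2 was 0.24, 0.30, 0.73, 0.53, 0.63, 0.51 and 0.11, a change of 0.45. NCAPG minus NCAPG2 was 0.25, 0.22, 0.39, -0.15, -0.04, -0.15 and -0.46, a change of -0.09. The condensin I score therefore held a pair that climbed to 7 h and stayed there and a pair that was at or under its 0 h value from 7 h on. Between the shared ATPases, SMC4 minus SMC2 changed by 0.36 between the windows, against a pooled SD of 0.07.

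With nocodazole the condensin I minus condensin II difference was 0.66, 0.73, 0.68 and 0.67 at 7, 8, 9 and 10 h, against 0.64, 0.72, 0.61 and 0.39 with DMSO. The 4 differences between treatments, 0.03, 0.01, 0.07 and 0.28, had a mean of 0.10 ± 0.13 (SD, n = 4 times). The mean was under the SD, and after quantile normalization it was 0.05, with nocodazole higher at 2 of 4 times. NCAPG minus NCAPG2 was higher with nocodazole at all 4 times, by 0.37 ± 0.37 (SD, n = 4 times), most at 10 h, by 0.85. The other 2 pairs were not. NCAPD2 minus NCAPD3 was higher at 1 of 4 times (mean -0.03) and NCAPH minus NCAPH2 at 2 of 4 (mean -0.05). Between the shared ATPases, SMC4 minus SMC2 was higher at all 4 times, by 0.44 ± 0.37 (SD, n = 4 times), most at 10 h, by 0.96.

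**Figure D3:**
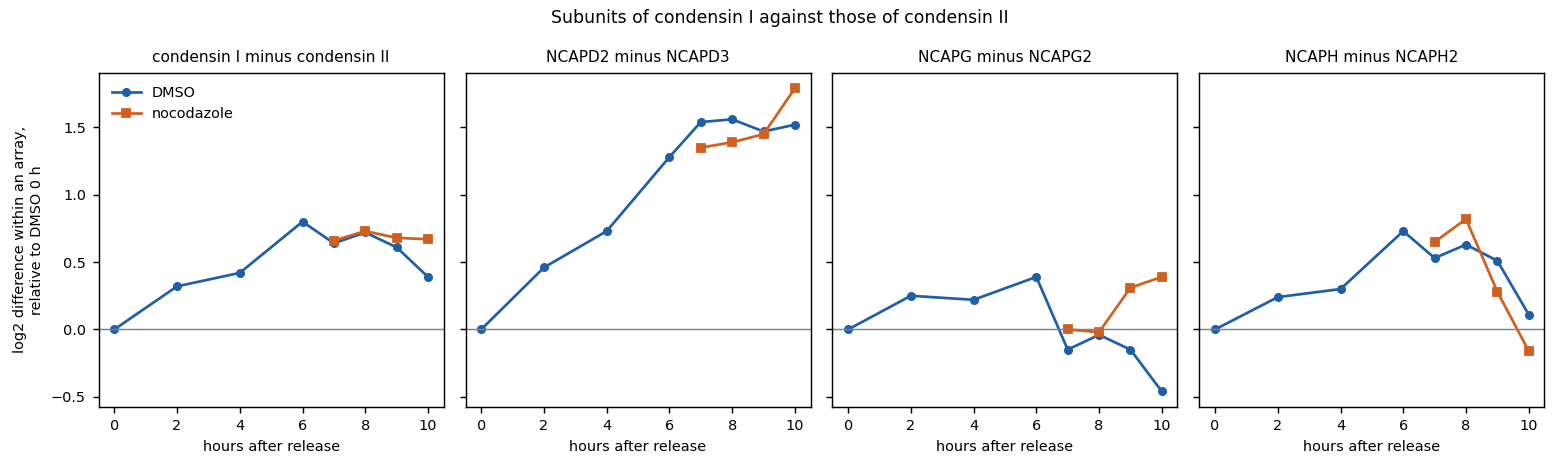
Log2 difference within an array between condensin I and condensin II subunits, as the mean of 3 against 3 and for each pair of counterparts, relative to DMSO 0 h, against hours after release, 1 array per point. NCAPD2 minus NCAPD3 reaches 1.54 at 7 h with DMSO, while NCAPG minus NCAPG2 is at -0.46 at 10 h with DMSO and at 0.39 with nocodazole.

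Nocodazole was compared with DMSO over 7 to 10 h with time as a block. None of the 9130 genes passed limma's adjusted test, and 10.4% had an unadjusted p under 0.05. The median difference over all genes was -0.09, 0.08, -0.25 and -0.61 at 7, 8, 9 and 10 h, and that over the 10 genes was -0.06, -0.01, -0.37 and -0.46. The part of this array-wide shift in the differences of single genes was not tested. After quantile normalization the medians over all genes were within 0.02 of 0, and the median of the blocked difference over all genes moved from -0.22 to -0.003.

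MKI67, by its representing set 212022_s_at, was higher with nocodazole at all 4 times, which 3.14% of all genes were. Its signals with nocodazole were 12.87, 12.56, 12.33 and 12.31 at 7, 8, 9 and 10 h, and the differences from DMSO of 0.17, 0.07, 0.14 and 0.01 averaged 0.10 (SE 0.09, adjusted p = 0.506, limma). No other MKI67 set was higher at all 4 times. The differences were 0.07, 0.17, 0.00 and -0.12 for 212021_s_at, -0.39, 0.46, -0.08 and -0.41 for 212020_s_at and -0.02, 0.19, -0.13 and -0.26 for 212023_s_at, and with the sets averaged the difference over the 4 times was -0.00709.

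NCAPG stayed near its DMSO signal, at 12, 11.93, 11.91 and 11.84, with differences of 0.03, -0.03, 0.08 and 0.02 (mean 0.03, SE 0.10, 95% interval -0.22 to 0.27, adjusted p = 0.885, limma). The representing sets of MKI67 and NCAPG were higher at both 9 and 10 h, as 14.2% of all genes were as deposited and 40.5% after quantile normalization. The second NCAPG set, 218663_at, was lower at both times (-0.07 and -0.16).

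By their representing sets, SMC2, NCAPD2 and NCAPG2 were lower with nocodazole at all 4 times, which 16.0% of all genes were. SMC2 was at 8.32, 8.39, 7.84 and 7.56, with differences of -0.40, -0.05, -0.81 and -1.29 (mean -0.64, SE 0.24, adjusted p = 0.386, limma). The other kept SMC2 set, 213253_at, had differences of -0.35, 0.18, -0.78 and -1.73, and so was higher with nocodazole at 8 h. NCAPD2 was at 11.57, 11.58, 11.12 and 11.23, with differences of -0.19, -0.15, -0.47 and -0.77 (mean -0.39, SE 0.15, adjusted p = 0.386, limma). NCAPG2 was at 11.59, 11.54, 11.19 and 11.04, with differences of -0.12, -0.04, -0.38 and -0.83. By the same sets these 3 genes were lower at all 4 times after quantile normalization too, SMC2 by 0.25, 0.25, 0.35 and 0.46. The share of all genes with that pattern after quantile normalization was not computed.

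NCAPD3 was at 10.65, 10.61, 10.10 and 9.87 with nocodazole, equal to DMSO within 0.01 at 7 and 8 h and different from it by -0.44 and -1.04 at 9 and 10 h. NCAPH was at 10.57, 10.74, 9.88 and 9.74, with differences of -0.01, 0.34, -0.48 and -0.60. SMC4 was at 11.51, 11.61, 11.17 and 11.27 and NCAPH2 at 9.34, 9.33, 9.02 and 9.32. By these representing sets both genes were lower at 9 and 10 h, by 0.25 to 0.36. Of the other SMC4 sets, 201663_s_at was lower at 9 and 10 h (-0.17 and -0.54). The SMC4 set 215623_x_at was higher at all 4 times (0.46, 0.43, 0.43 and 1.2). The NCAPH2 set 209718_at differed by -0.19 at 9 h and by 0.03 at 10 h. Lower signals at both 9 and 10 h were the rule, since 70.1% of all genes had them. After quantile normalization NCAPH2 was higher by 0.16 and 0.44 at 9 and 10 h, and SMC4 and NCAPH were lower at 9 h and higher at 10 h.

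At 9 and 10 h alone, SMC2 (-1.05) and NCAPD3 (-0.74) were lower and TOP2A (0.74) higher with adjusted p of 0.000532, 0.0408 and 0.0262 from limma, 3 of 10 genes against 36.8% of all genes, of which 4.53% were higher and 32.3% lower. After quantile normalization, an alternative chosen after seeing the data, the genes that passed at these times were TOP2A (1.0), NCAPG (0.34), MKI67 (0.32), NCAPD2 (-0.28) and NCAPG2 (-0.25), 5 of 10 against 32.7% of all genes. TOP2A alone passed in both, and SMC2 and NCAPD3 did not pass after quantile normalization (adjusted p = 0.118 and 0.160, limma). At 7 and 8 h alone, 0 of 10 genes passed against 0.274% of all genes.

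**Figure D4:**
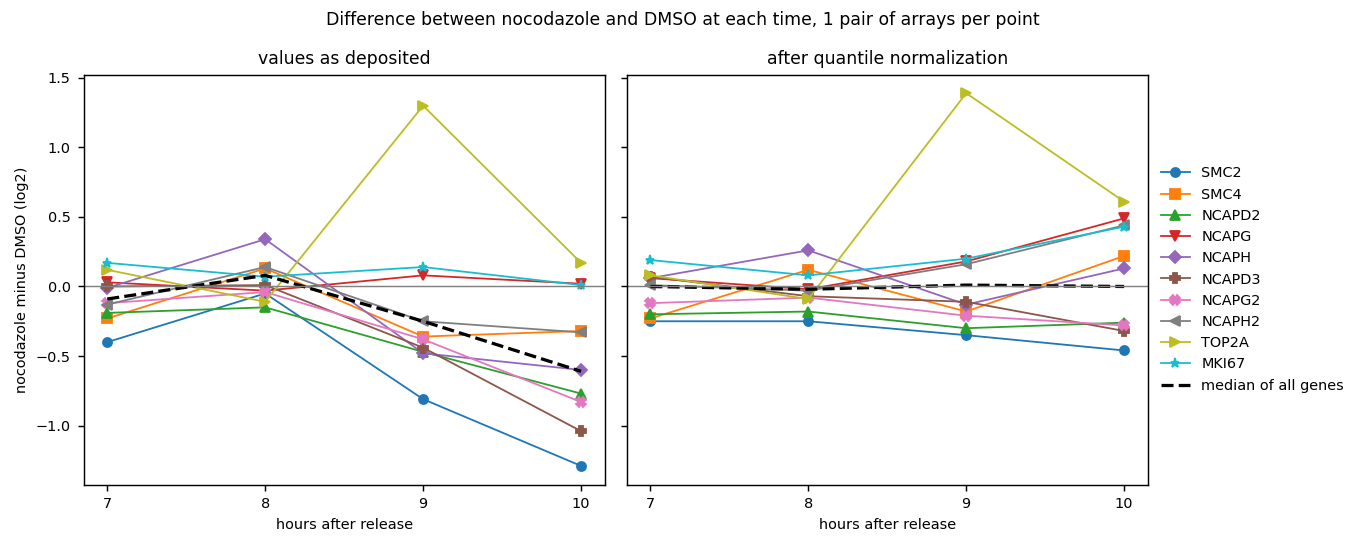
Log2 difference between nocodazole and DMSO at 7, 8, 9 and 10 h for each gene, as deposited on the left and after quantile normalization on the right, 1 pair of arrays per point, with the median of all genes as a dashed line. As deposited the median goes to -0.61 at 10 h and most of the 10 genes go down with it, and in both panels the TOP2A point at 9 h is the highest.

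The change of the nocodazole difference from 7 and 8 h to 9 and 10 h did not pass for any of the 10 genes, where 12.3% of all genes passed, 1.99% with a higher and 10.3% with a lower difference. The cut between these times was set because earlier results of these data had shown the late nocodazole arrays to stand apart. It was therefore not chosen blind to the data that it tests. Unadjusted p were under 0.05 in 35.2% of all genes and for SMC2 (-0.82, adjusted p = 0.117), NCAPD3 (-0.75, adjusted p = 0.0869), NCAPH (-0.70, adjusted p = 0.0924) and TOP2A (0.73, SE 0.30, adjusted p = 0.107), all from limma. The median change was -0.37 over the 10 genes and -0.44 over all genes. By their representing sets MKI67 (-0.05) and NCAPG (0.05) had the smallest changes of the 10 as deposited, and after quantile normalization theirs were 0.18 and 0.31. The other MKI67 sets had changes of -0.28 (212020_s_at), -0.18 (212021_s_at) and -0.28 (212023_s_at), and the averaged sets one of -0.20. After quantile normalization TOP2A passed (1.0, adjusted p = 0.0320, limma), against 7.88% of all genes, 4.07% higher and 3.80% lower. Without the arrays at 9 h NCAPD2, NCAPD3, NCAPG2 and NCAPH passed with changes of -0.60 to -1.05, where 44.3% of all genes passed, and without those at 10 h TOP2A alone passed (1.29), where 3.25% did. With a filter at 7 NCAPD3 and TOP2A passed, where 22.6% of genes did. Over all genes this comparison gave 182 higher and 940 lower as deposited and 372 higher and 347 lower after quantile normalization.

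The nocodazole values of TOP2A depended on the probe set. Set 201291_s_at, which stands for the gene, was at 13.31, 11.99, 12.76 and 12.16 with nocodazole at 7, 8, 9 and 10 h, with differences from DMSO of 0.12, -0.11, 1.30 and 0.17. Set 201292_at was at 12.72, 12.01, 11.67 and 10.42, with differences of -0.09, -0.38, -0.06 and -1.24. Over 7 to 10 h the first gave 0.37 (SE 0.23) and the second -0.44 (SE 0.21), and neither passed in the fit of all probe sets. The direction with nocodazole was thus opposite for the 2 sets.

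Over the DMSO times the 2 TOP2A sets ran closer together. Set 201292_at had 11.71, 12.06, 12.29, 12.67, 12.81, 12.39, 11.73 and 11.66, highest at 7 h, and passed the course test that 201291_s_at did not (adjusted p = 0.0129 against 0.111, limma, 24.0% of probe sets passing). Within an array, 201291_s_at minus 201292_at relative to DMSO 0 h lay between -0.40 and 0.46 on the DMSO arrays and was 0.48, -0.12, 0.99 and 1.64 on the nocodazole arrays. Pearson's r between the sets was 0.59 over the 12 arrays. The TOP2A calls with nocodazole at 9 and 10 h are those of 201291_s_at, and 201292_at was not fitted at these times alone.

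**Figure D5:**
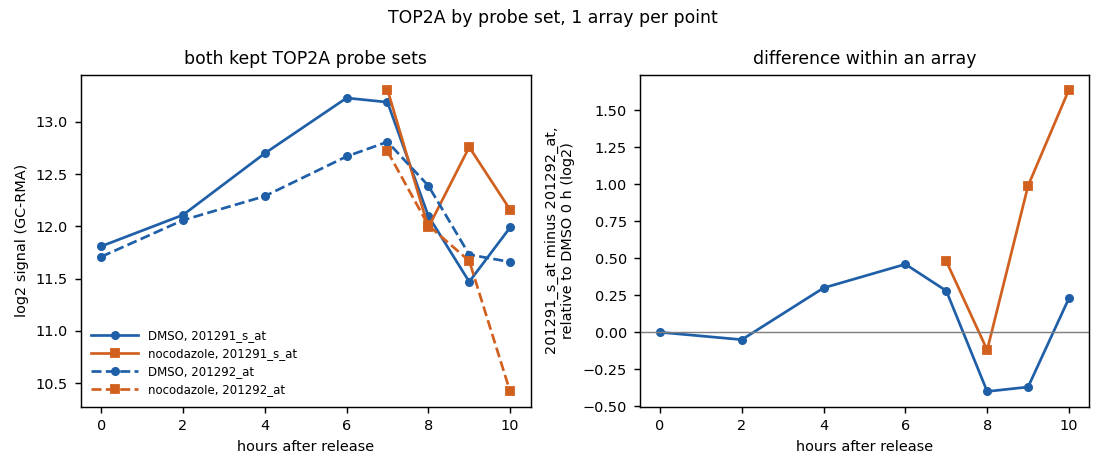
On the left, log2 signal of the TOP2A probe sets 201291_s_at (solid) and 201292_at (dashed) against hours after release, with DMSO in blue and nocodazole in orange, and on the right their difference within an array relative to DMSO 0 h, 1 array per point. The sets part at 9 and 10 h with nocodazole, where the difference reaches 0.99 and 1.64.

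Likeness was read as Pearson's r of log2 signals over the 12 arrays, a description without a test, since the arrays share their level shifts and the 4 nocodazole times. MKI67 was most like KIF2C (0.982), a kinesin that depolymerizes microtubules at centromeres, then PLEC (0.967) and MCAM (0.962). NCAPD2 was most like SERPINH1 (0.984), a collagen chaperone, PDCD2L (0.982) and EPB41L4A-AS1 (0.980). For both genes these values were at least 0.944 after quantile normalization. TOP2A had the loosest neighbours of the 10, CLDN3 (0.882), ATG12 (0.869) and TJP1 (0.830).

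NCAPG was most like CCNG2 (0.959), CLDND1 (0.957) and CAST (0.948), and NCAPH was most like ZFP90 (0.949), OXSR1 (0.947) and RING1 (0.946). For NCAPH and RING1, r was 0.151 after quantile normalization. NCAPG2 was most like RAD1 (0.986), MAF1 (0.984) and ANAPC4 (0.983), NCAPD3 was most like S100PBP (0.974), LSM2 (0.974) and SLC48A1 (0.965), and NCAPH2 was most like BCL7B (0.931), FLVCR1-DT (0.918) and LSR (0.914). SMC2 was most like KDM3A (0.977), SNAPC2 (0.973) and RTF1 (0.972), and SMC4 was most like ZMYM4 (0.960), BMP2K (0.956) and AGTPBP1 (0.951). Most of these values were lower after quantile normalization, such as 0.855 for SMC2 and KDM3A, 0.798 for SMC4 and AGTPBP1 and 0.769 for NCAPH2 and FLVCR1-DT. NCAPG and CAST, at 0.951, were not lower.

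Among the 10 genes, the closest pair was NCAPD3 and NCAPG2, both of condensin II (r = 0.919, and 0.860 after quantile normalization). Other genes were closer to both, since NCAPG2 ranked 137 among the genes most like NCAPD3, and NCAPD3 ranked 525 for NCAPG2. NCAPD3 and SMC2 (0.863), NCAPG2 and SMC2 (0.838) and NCAPD2 and MKI67 (0.820) followed. After quantile normalization these 3 values were 0.628, 0.844 and 0.802. NCAPG ran against MKI67 (-0.702) and NCAPD2 (-0.675), although NCAPG and NCAPD2 belong to the same complex.

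Other genes of these pathways were counted in 5 lists. Of 17 condensin regulators and cofactors above the filter, 9 passed over the course, where 21.8% of all genes did, and 5 between 0 to 4 h and 6 to 8 h, where 6.05% did. The kinase PLK1, which phosphorylates condensin II, rose by 2.30 (SE 0.38, adjusted p = 0.0220, limma), CCNB1, the cyclin partner of CDK1, by 1.26 (SE 0.22), the chromokinesin KIF4A, which recruits condensin I, by 0.65 (SE 0.14) and the chromokinesin KIF22 by 0.62 (SE 0.14). The only one that fell was RB1, by 0.57 (SE 0.14, adjusted p = 0.0492, limma), a repressor of E2F targets that was named after its value was seen. The median difference of the list was 0.39.

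Of 12 proliferation markers, 10 passed over the course, against 21.8% of all genes, and 5 rose and 1 fell between the windows, against 5.41% and 0.635%. AURKA rose by 1.89, CDC20 by 1.43, CCNB1 by 1.26 and BUB1 by 1.08, all of them genes of mitotic proteins. BIRC5 (0.73) and the replication clamp PCNA (-0.55), named after their values were seen, were the other 2. Of 12 Ki-67 partners and proteins of the chromosome periphery, 8 passed over the course, against 21.8% of all genes, and 3 rose, against 5.41%, namely NIFK, which binds Ki-67, by 0.96 (SE 0.16) and the nucleolar proteins NOP2 by 0.78 and DDX21 by 0.76.

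Of 12 topoisomerases and decatenation factors, 2 passed over the course, a share near the 21.8% of all genes. Between the windows 1 of the 12 rose, near the 5.41% of all genes. It was the SUMO ligase RANBP2, which modifies TOP2A, by 0.79 (SE 0.14, adjusted p = 0.0249, limma). Of 13 genes of the other SMC complexes, 3 passed over the course, also near 21.8%, and 0 passed between the windows, where 6.05% of all genes did. PDS5B at 1.16 (adjusted p = 0.139, limma) and PDS5A at 0.51 (adjusted p = 0.0804, limma) had the largest window differences of that list. The list medians were 0.30 for proliferation markers, 0.19 for Ki-67 partners, 0.02 for topoisomerases and 0.01 for the other SMC complexes, beside 0.06 over all genes. In none of the 5 lists did a gene pass from 6 to 8 h to 9 to 10 h or between nocodazole and DMSO over 7 to 10 h. In each of these comparisons 0 of all 9130 genes passed, so the lists could hold none.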

How the data were processed

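RNA of each of the 12 conditions was hybridized to a single Affymetrix U133 Plus 2.0 array. The authors deposited log2 signals made with GC-RMA (version not given in the sources used here), and all 12 columns were used. Of 54675 probe sets, 41097 had 1 gene symbol in the array's annotation, 1801 several and 11777 none, and 41043 of the first matched RefSeq by gene ID.

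A probe set with 1 symbol was kept where its log2 signal reached 5 on 2 or more arrays (15030 probe sets), and the kept set with the highest mean stood for its gene. Limma 3.58.1 (R 4.3.3) was used with eBayes(trend = TRUE), and p were adjusted by Benjamini-Hochberg over all 9130 genes and called under 0.05. A natural cubic spline of time (3 degrees of freedom) tested the DMSO course. Another fit compared the means of 3 DMSO windows, and another compared nocodazole with DMSO with time as a block, without and with an interaction for 9 and 10 h. The code was tested on simulated data. Tables and plots were made in Python 3.11.15 with pandas 2.3.3 and matplotlib 3.10.9.

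Members, lists and the cut of the nocodazole times at 9 h were chosen with earlier results of these data known. Named were the 10 members, up to 4 genes of each list that passed with the largest differences (up to 2 where none did), and the 3 genes most like each member. The alternatives were other level filters (none, or 7), quantile normalization, averaged probe sets, a prior without trend, a spline of 2 degrees of freedom, a fit without the time block, parts of the times and each time left out.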

Additional observations from a re-analysis of the deposited data

Results flagged for a closer look

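For 6 of the 65 genes of the 5 related lists (9.23%), and for none of the 10 members, the difference between nocodazole and DMSO changed from 7 and 8 h to 9 and 10 h by limma's interaction test. This share is no higher than the 12.3% of all genes, and the cut was set with the late nocodazole arrays already known to stand apart. All 6 changes were negative, as were those of 940 of the 1122 genes called, and the median over all genes was -0.44. Among decatenation factors it was -3.14 for the helicase BLM (SE 0.60, adjusted p = 0.0111), -1.57 for the SUMO ligase PIAS4 (SE 0.37, adjusted p = 0.0205) and -1.01 for TDP2, which releases trapped topoisomerase II from DNA (SE 0.29, adjusted p = 0.0387). It was -1.05 for WDR18 (SE 0.32, adjusted p = 0.0471) among the Ki-67 partners, -2.18 for the cohesin factor PDS5B (SE 0.51, adjusted p = 0.0200) among the other SMC complexes and -0.92 for GMNN, the inhibitor of replication licensing (SE 0.28, adjusted p = 0.0469), among proliferation markers. BLM was at a log2 signal of 7.08, 7.04, 5.18 and 3.12 with nocodazole at 7, 8, 9 and 10 h, PDS5B at 6.94, 7.64, 5.31 and 4.64, and PIAS4 at 5.93, 6.04, 4.37 and 4.98. BLM and PDS5B at 10 h and PIAS4 at 9 and 10 h were thus under the level filter of 5, and the sizes of these 3 changes rest on signals that low.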

How the results depend on the processing

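The precision was limited by 1 array per condition. No block by replicate number could be fitted, since the labels carry none, and treatments were paired by time instead. Of 86 counts and condensin scores recomputed under alternatives, 17 were classed as moved, all of them counts, and 69 were not. The condensin scores kept their sign but not always their size. The nocodazole difference of the score went from 0.10 to 0.02 at 7 and 8 h alone and to 0.04 without the 10 h arrays. Its later window difference went from -0.21 to -0.10 without the 10 h array. The 69 also include counts of 0 in comparisons where 0 of 9130 genes passed as deposited. Over the DMSO course the 3 genes that passed became 9 after quantile normalization and 1 to 3 with each array left out (TOP2A in place of NCAPG without the 10 h array). Between 0 to 4 h and 6 to 8 h the 2 genes became 0 without the level filter, 1 without the intensity trend and 0 to 3 with each array left out. For nocodazole against DMSO the 0 genes became 3 at 9 and 10 h alone and 5 there after quantile normalization. For the change of that difference the 0 genes became 2 with a filter at 7 (NCAPD3 and TOP2A), 1 after quantile normalization and 0 to 4 with each time left out. With 9 and 10 h alone, 1 residual degree of freedom was left. Over all genes, the course gave 1993 calls, and 3665 after quantile normalization. The windows gave 552, 884 after quantile normalization and 65 without the filter. Nocodazole gave 0, and 36 after quantile normalization. The change gave 1122, 719 after quantile normalization and 10073 without the filter, 1742 with a filter at 7, 1714 with probe sets averaged per gene, 4047 without the 9 h arrays and 297 without those at 10 h.

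Of 526 differences of single genes recomputed, 448 kept direction and call and 45 reversed, none of them called as deposited, and the cause was not tested. After quantile normalization the window difference of SMC2 was -0.15, the later window difference of NCAPG2 -0.03, the nocodazole difference of NCAPH 0.08 and of NCAPH2 0.14, and the change of it for SMC4 0.08, NCAPH2 0.31 and MKI67 0.18. With probe sets averaged per gene the later window difference was 0.06 for SMC4 and -0.04 for NCAPH2, the nocodazole difference 0.07 for SMC4, -0.03 for NCAPG, -0.04 for TOP2A and -0.00709 for MKI67, and the change for NCAPG -0.00557. With single other probe sets, the window difference of NCAPH2 was 0.01 (209718_at), and the later one -0.17 for SMC2 (213253_at), 0.13 and 0.05 for SMC4 (201663_s_at and 215623_x_at) and -0.19 for NCAPH2. The nocodazole difference was 0.63 for SMC4 (215623_x_at), -0.08 for NCAPG (218663_at), -0.44 for TOP2A (201292_at) and -0.10 and -0.06 for MKI67 (212020_s_at and 212023_s_at). The change was 0.37 for SMC4, -0.06 for NCAPG and -0.42 for TOP2A with the same sets.

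At 7 and 8 h alone the nocodazole difference was 0.0052 for NCAPD3, 0.16 for NCAPH and 0.00485 for NCAPH2, and after quantile normalization 0.16 for NCAPH and -0.00513 for TOP2A. At 9 and 10 h alone after quantile normalization it was 0.02 for SMC4, 0.000188 for NCAPH and 0.30 for NCAPH2. With each array left out, the window difference of NCAPD3 was -0.20 to 0.00408, and the later one -0.06 to 0.07 for SMC4, -0.03 to 0.39 for NCAPD2, -0.05 to 0.32 for NCAPD3, -0.13 to 0.18 for NCAPG2 and -0.07 to 0.31 for NCAPH2. The change for MKI67 was -0.11 to 0.02 with each time left out. NCAPD2 and MKI67 lost the window call, with adjusted p of 0.0606 to 0.161 from limma, without the 0, 2, 7 or 8 h array, and MKI67 also without the 9 or the 10 h array (0.0637 each).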
